A study of Rattus norvegicus with 4 samples.

Results

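The 94 protein-coding genes described here build or move the mitotic spindle and the wider microtubule network. They were chosen by gene symbol among the 34773 genes of the deposited table, of which 22250 are protein coding: kinesins (*Kif* followed by a digit or c), centromere proteins (*Cenp*), the *Bub* checkpoint genes, alpha, beta and gamma tubulins with the gamma-tubulin complex proteins (*Tuba*, *Tubb*, *Tubg*), and the Aurora and Polo-like kinases (*Aurk*, *Plk*). The rule uses the symbol and the gene type only, and no measured value. Of the 94 members, 85 passed the filter on low counts and were tested, beside 15028 genes tested in all. The other 9 had at most 7 counts in any library, and 4 of them (*Kif2b*, *Kif12*, *Kif28p* and *Tubal3*) were at 0 counts in all 4 libraries.

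The RNA came from rat embryonic stem cells (ESCs). The control was 1 library of DA-5-3 GFP, labelled WT, a line that carries a GFP reporter at *Rex1* (*Zfp42*). It was compared with 3 libraries labelled Thop1-KO, the subclones #1, #2 and #3, in which *Thop1*, the gene of a cytosolic oligopeptidase, had been targeted with Cas9 in that reporter line. All 4 were cultured on feeder cells with 2 kinase inhibitors and LIF (2i/LIF) and carry the same reporter. The paper's methods describe DA-5-3 as diploid, while the deposited design text calls the cells haploid; ploidy was not measured here. The spread in every test below is the spread among 3 subclones, and with 1 control library a difference between genotypes cannot be told apart from a difference between that culture and the others. For 1 value, the smallest p that an exact one-sided permutation of these 4 libraries allows is 0.25.

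A spindle is made of microtubules, polymers of alpha- and beta-tubulin dimers that grow from gamma-tubulin rings. Kinetochores, assembled on the centromere by the CENP proteins, hold chromosomes to these fibres, and the Bub proteins delay anaphase until every kinetochore is attached. Mitotic kinesins slide, depolymerize or crosslink the fibres under the control of Aurora and Polo-like kinases, while other kinesins carry cargo along microtubules in interphase cells, axons and cilia. Pluripotent stem cells divide quickly and spend much of their cycle in S phase.

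The library totals lay between 15405499 and 17936544 counts. *Thop1* was counted 5500 times in the control and 1843, 1635 and 2680 times in subclones #1, #2 and #3, a log2 fold change of -1.66 (SE 0.29, adjusted p = 0.0187). The summed FPKM of the 9 matched pluripotency markers, out of 10 listed, was 5383 in the control and between 4680 and 5480 in the subclones. *Pou5f1* made up most of this sum, at 3347 FPKM in the control and 3403, 2718 and 3294 FPKM in the subclones. Of the 9, 3 were called higher, 1 lower and 5 neither. The higher ones were *Esrrb* (12.1 FPKM in the control against 252, 217 and 246), *Tfcp2l1* (4.61 against 31.1, 33.9 and 36.9) and *Fgf4* (17.1 against 191, 153 and 187). *Dppa5* was lower (1054 against 519, 592 and 452 FPKM). The 15 matched fibroblast markers, out of 16 listed, summed to 42.1 FPKM in the control and to 63.0, 132 and 78.5 FPKM in #1, #2 and #3; 1 of the 11 tested (*Lox*) was called higher, none lower, and *Dcn*, *Thy1* and *Lum* were at 0 everywhere. The 9 matched neural markers summed to 174 FPKM in the control and to 129, 182 and 165 FPKM in the subclones, with *Nes* called lower and *Pax6* and *Syt1* at 0 everywhere. The 6 matched markers of ciliated cells summed to 7.54 FPKM in the control and to between 3.51 and 6.41 FPKM in the subclones, with none called and *Dnah5* at 0. *Col1a1* made up most of the fibroblast sum, at 32.2 FPKM in the control and 51.8, 94.1 and 62.5 FPKM in the subclones. Among the 11 tested fibroblast markers the control was below all subclones for 8, above them for 1 and inside their range for 2. The part of other cell types in the results below was not tested.

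Levels are given as CPM (counts scaled to library size with TMM factors) when 1 gene is compared across libraries, and as FPKM (fragments per kilobase of gene, scaled to library size, as deposited) when genes are compared with each other. A gene was called when its Benjamini-Hochberg adjusted p in edgeR's quasi-likelihood test, adjusted over all 15028 genes, was under 0.05. Of the 85 tested members, 10 were called higher in Thop1-KO, 7 lower and 68 neither. Over all genes tested, 8.62% were called higher and 5.17% lower, and the members' shares were 11.8% and 8.24%, not far above that background. Without adjustment, 34 of the 85 tested members had a p under 0.05 in edgeR, beside 5110 of all 15028 genes tested. The median log2 fold change of the tested members was 0.05, against 0.06 for all genes tested. The control lay outside the range of the subclones for 68 of the 85 members, above it for 32 and below it for 36, which is 80.0% of the members beside 75.7% of all genes tested.

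These counts depended on which subclones entered. Without subclone #3, 6 members were called higher and 1 lower, while over all genes the shares were 2.40% and 0.698%. Without #2, 17 of 83 tested members were called higher and 21 lower, while over all genes the shares were 21.1% and 16.8%. Without #1 the counts were 10 and 6, beside 8.85% and 4.79% of all genes. DESeq2's Wald test called 14 of 90 tested members higher and 9 lower, beside 9.98% and 5.12% of all genes. Those shares are over 19903 genes, low-count genes among them, because no filter on low counts preceded that fit. In a fit that removed a trend of fold change on gene length, 8 members were called higher and 12 lower, 14 of the 17 original calls among them, beside 7.14% and 6.40% of all genes, and the median of the members moved to -0.27 while that of all genes moved to -0.09.

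**Figure D1:**
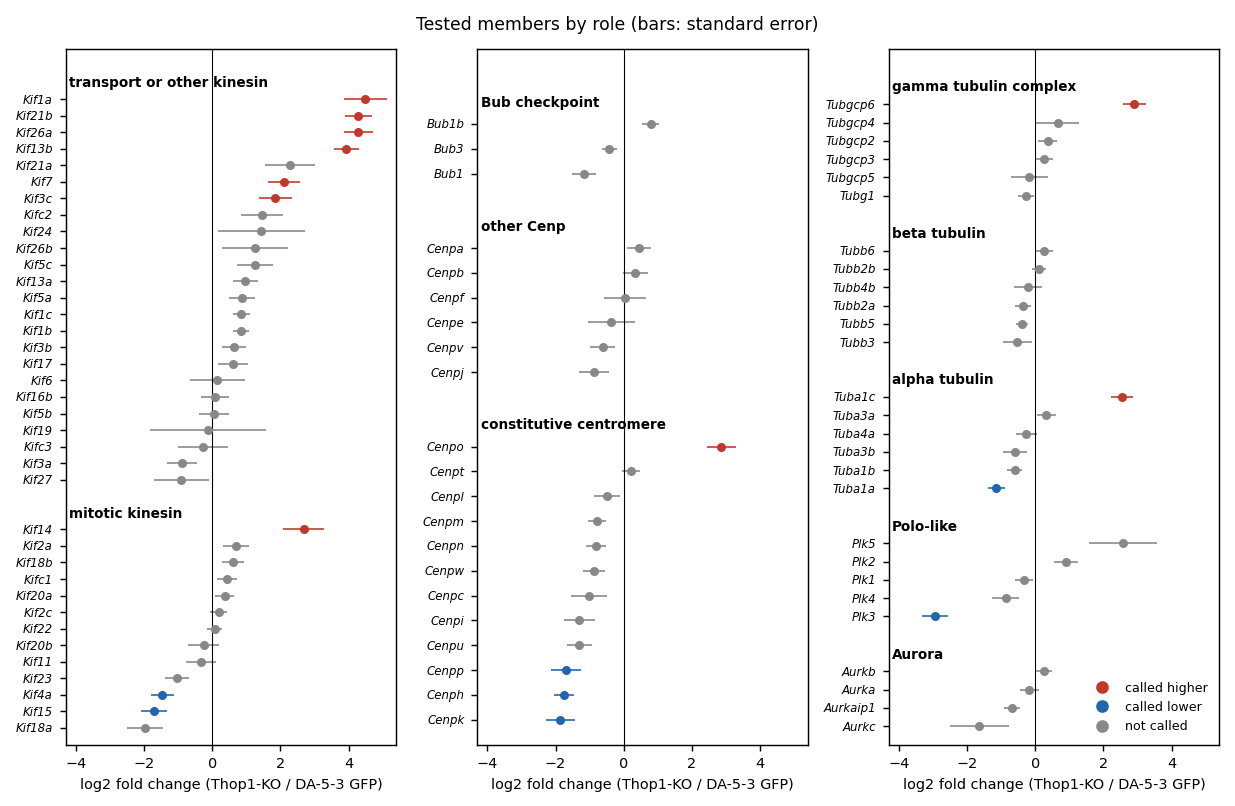
Each point is the log2 fold change (Thop1-KO over DA-5-3 GFP, x axis) of 1 tested member from edgeR, with a bar of 1 standard error on each side, grouped by role and ordered by value within a role (y axis). Red points were called higher, blue points lower and grey points neither; 20 of the 24 transport or other kinesins lie above 0 and 10 of the 12 constitutive centromere genes lie below 0.

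Kinesins that move cargo or act outside the spindle held 6 of the 10 higher calls and none of the 7 lower ones. Of 27 such genes, 24 were tested, 6 rose (*Kif21b*, *Kif26a*, *Kif13b*, *Kif1a*, *Kif7* and *Kif3c*), none fell and 18 were not called. The 6 are 25.0% of those tested, beside 8.62% of all genes called higher and 5.17% called lower. Of all genes of at least 4000 bases, 11.4% were called higher. The 24 had a median length of 4853.5 bases, beside 2096 for all genes tested. Their median log2 fold change was 0.92, and 20 of the 24 had a positive value, beside 7802 of all 15028 genes tested. Unadjusted, 10 of the 24 had a p under 0.05 in edgeR, all of them higher, beside 5110 of all 15028 genes tested in either direction. DESeq2's Wald test called 9 of 25 higher and 0 lower, beside 9.98% and 5.12% of all genes. In the length-corrected fit 4 were called higher and 0 lower, beside 7.14% and 6.40% of all genes. There 17 of 24 were positive and the median was 0.53. Without #2, 10 of 22 were called higher and 1 lower (*Kif3a*), beside 21.1% and 16.8% of all genes. Without #3 the counts were 4 and 0, beside 2.40% and 0.698%.

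*Kif21b*, a kinesin that slows and pauses microtubule growth and is best known in neurons and lymphocytes, had 1.95 CPM in the control and 37.6, 34.7 and 42.5 CPM in subclones #1, #2 and #3. The subclones averaged 38.3 ± 3.93 CPM (SD, n = 3), a log2 fold change of 4.29 (SE 0.40, adjusted p = 0.00678). All 3 subclones stood far above the control and close to each other.

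*Kif26a*, an unconventional kinesin without motor activity that restrains GDNF and Ret signalling in enteric neurons, had 3.43 CPM in the control and 77.5, 71.6 and 52.0 CPM in #1, #2 and #3. The log2 fold change was 4.28 (SE 0.42, adjusted p = 0.00678). *Kif13b*, a plus-end motor that carries membrane cargo, had 2.62 CPM in the control and 40.8, 42.2 and 37.8 CPM in the subclones, a log2 fold change of 3.94 (SE 0.37, adjusted p = 0.00678). The calls of *Kif21b*, *Kif26a* and *Kif13b* held in all 12 alternatives of the processing, with adjusted p of at most 0.0173.

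*Kif1a*, the motor of synaptic vesicle precursors, was near the detection limit in the control. It was counted 4 times there and 114, 90 and 120 times in #1, #2 and #3, or 0.27 against 6.80, 5.09 and 6.68 CPM. The log2 fold change was 4.49 (SE 0.64, adjusted p = 0.0112), a size that depends on the few counts of the control.

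*Kif7*, which acts at the tip of the primary cilium in hedgehog signalling, was counted 22 times in the control and 109, 123 and 102 times in the subclones. Its log2 fold change was 2.10 (SE 0.48, adjusted p = 0.0356). *Kif3c*, a gene of the kinesin-2 family, had 2.22 CPM in the control and 6.26, 8.94 and 8.90 CPM in the subclones. The log2 fold change of *Kif3c* was 1.85 (SE 0.47, adjusted p = 0.0477). Both calls were lost without #3, in limma with either pseudocount and in the length-corrected fit (adjusted p of 0.0518 for *Kif7* and 0.0643 for *Kif3c*).

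*Kif21a*, the close relative of *Kif21b*, had 10 counts in the control and 39, 49 and 87 in the subclones, with a log2 fold change of 2.29 (SE 0.73) that did not pass (adjusted p = 0.0815), though it did in DESeq2's Wald test (adjusted p = 0.0494) and without #2. *Kifc2*, a minus-end kinesin of axons, had 17 counts in the control and 37, 63 and 66 in the subclones and did not pass either (log2 fold change 1.46, SE 0.62, adjusted p = 0.15). *Kif1b*, a mitochondrial and vesicle motor named here after its values were seen, had 3436 counts in the control and 6720, 8026 and 7145 in the subclones. Its log2 fold change of 0.85 (SE 0.23) missed the threshold narrowly, with an adjusted p of 0.0545. It was called higher in DESeq2's Wald test, with library size scaling and without #2.

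Mitotic kinesins went both ways. Of 14, 13 were tested: 1 rose (*Kif14*), 2 fell (*Kif15* and *Kif4a*) and 10 were not called, with a median log2 fold change of 0.08. These calls are 7.69% higher and 15.4% lower, beside 8.62% and 5.17% of all genes.

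*Kif14*, which binds citron kinase and PRC1 and is needed for cytokinesis, was counted 10 times in the control and 60, 71 and 98 times in #1, #2 and #3. In CPM these are 0.67 against 3.58, 4.02 and 5.45, a log2 fold change of 2.68 (SE 0.61, adjusted p = 0.0361). *Kif15*, a plus-end kinesin that can stand in for KIF11 in keeping the spindle bipolar, had 19.7 CPM in the control and 4.35, 6.67 and 6.96 CPM in the subclones. Its log2 fold change was -1.72 (SE 0.38, adjusted p = 0.0332). *Kif4a*, a chromokinesin that shapes chromosome arms and the central spindle, had 50.8 CPM in the control and 13.4, 20.1 and 21.6 CPM in the subclones (log2 fold change -1.47, SE 0.33, adjusted p = 0.0361). *Kif15* shares 3529 of its 70984 bases with *RGD1311745*, on the other strand (log2 fold change -1.14, adjusted p = 0.0657). In *Kif15* and *Kif4a* the control was above all subclones, with #1 the lowest. All 3 calls were lost without #3 and in limma on log2 FPKM with either pseudocount.

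*Kif18a*, which damps the movement of chromosomes at the metaphase plate, had 4.58 CPM in the control and 0.95, 1.47 and 1.06 CPM in the subclones. With a log2 fold change of -1.97 (SE 0.53) it missed the threshold at an adjusted p of 0.0544, and it was called lower without #2, in the length-corrected fit, under the filter of 10 counts in every library and in limma on log2(FPKM + 1). *Kif23*, the motor of centralspindlin, had 34.0 CPM in the control and 12.9, 21.4 and 15.8 CPM in the subclones (log2 fold change -1.02, SE 0.35, adjusted p = 0.0966).

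The mitotic kinesins with the highest levels were not called. *Kif22*, which pushes chromosome arms outward, was at 117 FPKM in the control and 127, 116 and 128 FPKM in the subclones. *Kifc1*, the minus-end motor that focuses spindle poles, was at 72.2 FPKM in the control and 76.9, 95.1 and 118 FPKM in the subclones. *Kif20a*, which takes the chromosomal passenger complex to the midzone, was at 30.3 FPKM in the control and 32.2, 43.8 and 40.5 FPKM in the subclones. The control was below all 3 subclones for *Kifc1* and *Kif20a* and within their range for *Kif22*, and the log2 fold changes of 0.43 (SE 0.30), 0.36 (SE 0.28) and 0.08 (SE 0.22) were not called. Those of *Kif11*, the main motor of spindle bipolarity, *Kif2c*, a depolymerase at kinetochores, and *Kif20b*, a kinesin of cytokinesis, were -0.33 (SE 0.44), 0.19 (SE 0.24) and -0.26 (SE 0.44), also not called.

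Among the 12 genes of the constitutive centromere network, the layer of the kinetochore that stays on the centromere through the cell cycle, 3 fell (*Cenph*, *Cenpk* and *Cenpp*), 1 rose (*Cenpo*) and 8 were not called. All 12 were tested, and the calls are 25.0% lower and 8.33% higher, beside 5.17% and 8.62% of all genes. The median log2 fold change was -0.95 and 10 were negative, beside 7226 of all 15028 genes tested. The control stood above all 3 subclones for those 10 and below them for *Cenpo* and *Cenpt*. Its value thus lay outside their range in 12 of 12, beside 75.7% of all genes tested. Unadjusted, 9 of the 12 had a p under 0.05 in edgeR, beside 5110 of all 15028 genes tested. Because the RNA is from bulk cultures, fewer dividing cells and less RNA per cell cannot be told apart.

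*Cenph* and *Cenpk* belong to the same unit of this network, together with *Cenpi* and *Cenpm*. *Cenph* had 45.8 CPM in the control and 15.2, 11.1 and 14.5 CPM in #1, #2 and #3 (log2 fold change -1.75, SE 0.30, adjusted p = 0.0182). *Cenpk* had 14.0 CPM in the control and 2.62, 4.24 and 4.67 CPM in the subclones (log2 fold change -1.86, SE 0.42, adjusted p = 0.0355). The partners *Cenpi* and *Cenpm* had log2 fold changes of -1.30 (SE 0.45, adjusted p = 0.0945) and -0.79 (SE 0.27, adjusted p = 0.0934), each with the control above all 3 subclones and neither called. *Cenpm* was the most abundant of the network, at 93.2 FPKM in the control and 64.7, 46.3 and 50.7 FPKM in the subclones.

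*Cenpo*, *Cenpp* and *Cenpu* share a second unit, the one to which PLK1 docks, and they differed in direction. *Cenpo* had 1.68 CPM in the control and 13.4, 11.8 and 11.6 CPM in the subclones, a log2 fold change of 2.86 (SE 0.43, adjusted p = 0.013). *Cenpp* had 11.0 CPM in the control and 2.50, 3.22 and 4.51 CPM in the subclones, a log2 fold change of -1.69 (SE 0.44, adjusted p = 0.0487). *Cenpu*, named after its values were seen, had 19.2 CPM in the control and 7.04, 9.73 and 6.46 CPM in the subclones and was not called (log2 fold change -1.31, SE 0.36, adjusted p = 0.0582), though it was in DESeq2's Wald test and without #2. *Cenpc*, which links the centromeric nucleosome to the outer kinetochore, had 7.60 CPM in the control and 2.80, 2.77 and 5.68 CPM in the subclones (log2 fold change -1.02, SE 0.53, adjusted p = 0.218).

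Without #2, 8 genes of this network were called lower and 1 higher, beside 16.8% and 21.1% of all genes. Without #3, 0.698% of all genes were called lower and 2.40% higher. None of the 4 calls was made without #3, where 1 gene had an unadjusted p under 0.05 in the higher direction and 4 in the lower, and the adjusted p of *Cenph* was 0.0756 and that of *Cenpo* 0.0528. The call of *Cenpp* held in 6 of the 12 alternatives only. In the table's coordinates *Cenpo* shares 511 of its 13596 bases with *Adcy3*, on the other strand, and *Cenpk* shares 329 of 23011 with *Ppwd1*. *Adcy3* had a log2 fold change of -0.82 and *Ppwd1* of -0.90, neither called. Whether reads were assigned by strand is not given in the sources used here, so counts in the shared bases cannot be told apart.

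The other 6 *Cenp* genes were all tested and none was called, by edgeR or by DESeq2's Wald test, and 0 had an unadjusted p under 0.05. The strongest expressed were *Cenpv*, at 112 FPKM in the control and 86.5, 48.6 and 84.3 FPKM in the subclones, and *Cenpb*, which binds centromeric DNA repeats, at 26.7 FPKM in the control and 25.4, 45.0 and 30.7 FPKM in the subclones. *Cenpa*, the histone H3 variant that marks the centromere, had a log2 fold change of 0.45 (SE 0.36, adjusted p = 0.413). *Cenpe*, the kinetochore motor, and *Cenpf*, a large protein of the outer corona, had values of -0.36 (SE 0.68) and 0.04 (SE 0.61). Both had subclone #1 well below #2, at 2.33 against 8.31 CPM for *Cenpe* and 6.26 against 18.6 CPM for *Cenpf*, with the control between them.

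The 3 *Bub* genes were not called in edgeR, where 2 had an unadjusted p under 0.05. *Bub1*, a checkpoint kinase at the kinetochore, had 43.7 CPM in the control and 13.7, 22.4 and 22.5 CPM in the subclones (log2 fold change -1.16, SE 0.36, adjusted p = 0.0734). *Bub1b*, which inhibits the anaphase-promoting complex (APC/C), had 70.2 CPM in the control and 112, 127 and 125 CPM in the subclones (log2 fold change 0.79, SE 0.25, adjusted p = 0.079). *Bub3*, their common partner, had 253 CPM in the control and 193, 184 and 189 CPM in the subclones (log2 fold change -0.42, SE 0.21, adjusted p = 0.209). The control was above all 3 subclones for *Bub1* and *Bub3* and below them for *Bub1b*. *Bub1* and *Bub1b* were both called without #2, and *Bub1* also in DESeq2's Wald test and the length-corrected fit.

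Of the 5 Polo-like kinases, *Plk3* fell and 4 were not called. *Plk3*, which responds to DNA damage and other stress, had 23.1 CPM in the control and 3.52, 3.34 and 2.11 CPM in the subclones. Its log2 fold change was -2.95 (SE 0.39, adjusted p = 0.00926), and it was called in all 12 alternatives. *Plk1*, the main Polo-like kinase of mitosis, was the highest of the family at 116 FPKM in the control and 75.3, 89.9 and 110 FPKM in the subclones (log2 fold change -0.33, SE 0.28, adjusted p = 0.421). *Plk4*, which starts centriole duplication, and *Plk2* had log2 fold changes of -0.87 (SE 0.39, adjusted p = 0.164) and 0.90 (SE 0.35, adjusted p = 0.127). *Plk5*, which lacks kinase activity, had 0.87 CPM in the control and 6.86, 1.58 and 7.24 CPM in #1, #2 and #3. Its log2 fold change of 2.57 (SE 1.00, adjusted p = 0.126) was the largest among the members not called, and #2 stood near the control. *Plk5* was called higher in DESeq2's Wald test (adjusted p = 0.0238) and without #2.

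None of the 4 *Aurk* genes was called, by edgeR or by DESeq2's Wald test. *Aurka*, which acts at spindle poles, was at 94.4 FPKM in the control and 88.7, 67.5 and 94.5 FPKM in the subclones. *Aurkb*, the kinase of the chromosomal passenger complex, was at 21.5 FPKM in the control and 26.8, 25.6 and 23.9 FPKM in the subclones. Their log2 fold changes were -0.17 (SE 0.27) and 0.25 (SE 0.24). *Aurkc*, an Aurora kinase of germ cells, had 2.02 CPM in the control and 0.24, 0.62 and 1.06 CPM in the subclones (log2 fold change -1.64, SE 0.87, adjusted p = 0.225). *Aurkaip1* matched by symbol only, since its product is not a kinase but a protein of the mitochondrial ribosome that also binds Aurora A (log2 fold change -0.69, SE 0.23, adjusted p = 0.092). Unadjusted, 1 of the 4 had a p under 0.05, and *Aurkaip1* was called lower without #2 and in the length-corrected fit.

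**Figure D2:**
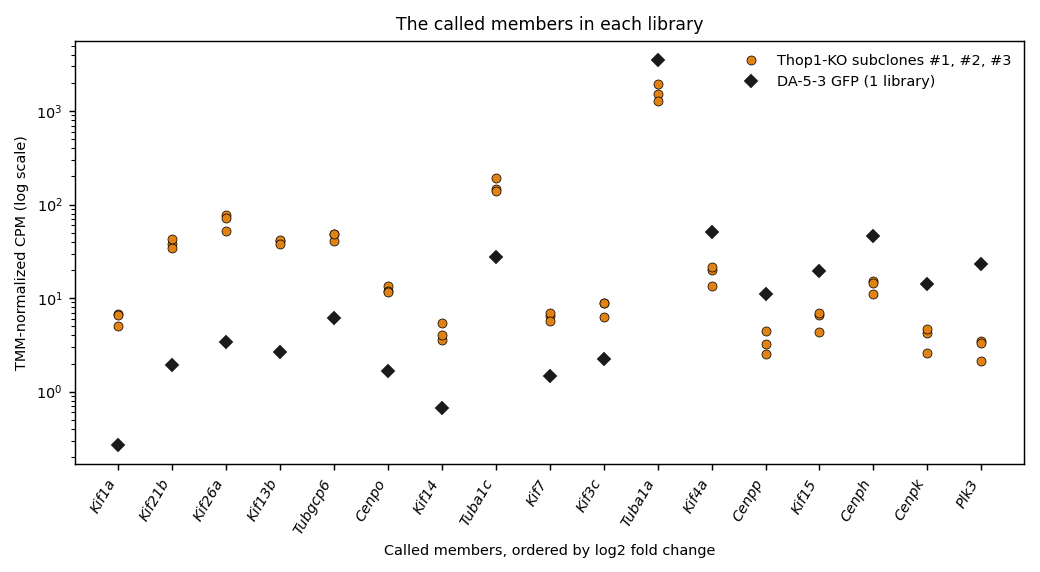
TMM-normalized CPM (y axis, log scale) of the 17 called members in each library, ordered from the highest to the lowest log2 fold change (x axis). Orange circles are the 3 Thop1-KO subclones and the black diamond is the DA-5-3 GFP library. The diamond lies outside the range of the subclones for every called member, which the test itself favours, beside 75.7% of all genes tested.

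Alpha tubulin is made from several genes whose proteins are nearly the same, and the balance among them differed between the genotypes. *Tuba1a* fell, *Tuba1c* rose and the other 4 tested alpha-tubulin genes were not called. *Tuba1b*, *Tuba1a* and *Tuba1c* are neighbours on chromosome 7. In the deposited coordinates they lie at 140614752 to 140617721 on the minus strand, 140637287 to 140640953 on the minus strand and 140716113 to 140723714 on the plus strand, with gaps of 19565 and 75159 bases and no other tested gene in between. The RefSeq sequences around their starts are shown because the 3 neighbours differed in direction. Each runs from 250 bases before the start to 30 after it on GRCr8, another build than the table's coordinates, 5′ to 3′ on the gene's strand, with the letters CCAAT or TTTGAA and their reverse complements in capitals.
Tuba1a (chr7:131995790-131996069, - strand): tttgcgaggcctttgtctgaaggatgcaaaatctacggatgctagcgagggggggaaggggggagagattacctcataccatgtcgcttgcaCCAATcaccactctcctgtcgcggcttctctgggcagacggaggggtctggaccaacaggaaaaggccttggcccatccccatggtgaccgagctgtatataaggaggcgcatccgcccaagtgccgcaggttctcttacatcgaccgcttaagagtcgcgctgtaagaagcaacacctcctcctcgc
Tuba1b (chr7:131972558-131972837, - strand): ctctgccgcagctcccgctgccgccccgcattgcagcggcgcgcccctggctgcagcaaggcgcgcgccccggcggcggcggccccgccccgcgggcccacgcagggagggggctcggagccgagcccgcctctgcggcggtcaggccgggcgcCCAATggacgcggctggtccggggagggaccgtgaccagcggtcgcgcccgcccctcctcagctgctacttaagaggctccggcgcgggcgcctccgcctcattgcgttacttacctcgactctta
Tuba1c (chr7:132070734-132071013, + strand): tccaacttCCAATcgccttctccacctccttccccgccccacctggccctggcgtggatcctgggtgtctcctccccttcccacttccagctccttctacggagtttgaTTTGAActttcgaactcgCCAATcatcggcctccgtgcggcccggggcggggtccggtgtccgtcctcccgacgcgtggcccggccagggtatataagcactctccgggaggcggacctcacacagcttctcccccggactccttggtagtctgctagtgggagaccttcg
All 3 held CCAAT, and *Tuba1c* alone of the 3 held TTTGAA.

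*Tuba1a*, the main alpha tubulin of developing neurons, was by FPKM the most abundant alpha-tubulin transcript in the control. It was at 3515 CPM there and at 1512, 1959 and 1292 CPM in #1, #2 and #3, a log2 fold change of -1.15 (SE 0.25, adjusted p = 0.032). *Tuba1c* was at 27.4 CPM in the control and at 147, 191 and 140 CPM in the subclones, a log2 fold change of 2.54 (SE 0.32, adjusted p = 0.00878). *Tuba1b*, found in most tissues, was at 2114 CPM in the control and at 1279, 1642 and 1270 CPM in the subclones (log2 fold change -0.60, SE 0.22, adjusted p = 0.113). *Tuba1c* was called in all 12 alternatives, and *Tuba1a* in 9, not without #3 nor in limma with either pseudocount. Near-identical copies can share reads, so the split among these genes depends on how the authors' counting treated them.

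Summed over all genes tested, the FPKM was 825150 in the control and 720884, 640128 and 660041 in #1, #2 and #3. Summed over the alpha-tubulin genes, it was 3872 in the control and 2137, 2788 and 1944 in the subclones, a mean of 2290 ± 443 (SD, n = 3). *Tuba1a* made up 55.4% of this sum in the control and 42.1% ± 1.82 (SD, n = 3) in the subclones. *Tuba1b* made up 33.5% and 37.6% ± 1.80, *Tuba4a* 9.07% and 12.7% ± 1.32, and *Tuba1c* 0.455% and 4.49% ± 0.0957. The share of *Tuba1c* varied little between subclones, from 4.41% to 4.59%, while its level was highest in #2 and lowest in #3, the order of the whole sum. For these 4 genes the control's share lay outside the range of the subclones.

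**Figure D3:**
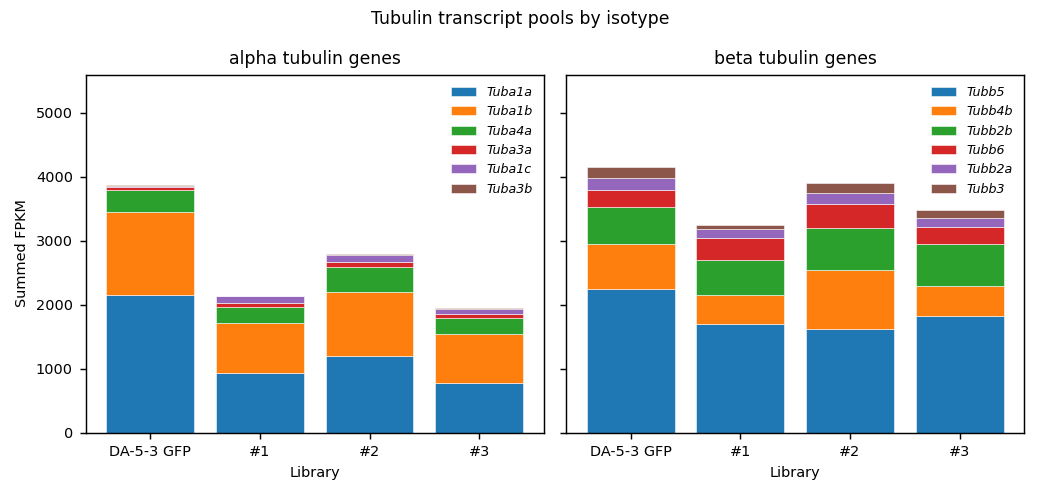
FPKM as deposited (y axis), stacked by gene for the alpha-tubulin genes (left) and beta-tubulin genes (right) in each library (x axis); genes under 1 FPKM everywhere are not drawn. The alpha sum is 3872 in DA-5-3 GFP and between 1944 and 2788 in the subclones, while the beta sum is 4158 and between 3254 and 3911. Over all genes tested the FPKM sum is 825150 in DA-5-3 GFP and between 640128 and 720884 in the subclones.

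Beta tubulin showed no called gene among 6 tested, and 0 of the 6 had an unadjusted p under 0.05 in edgeR. The summed FPKM was 4158 in the control and 3254, 3911 and 3474 in the subclones. Over all genes tested it was 825150 in the control and between 640128 and 720884 in the subclones. *Tubb5*, the leading beta tubulin of dividing cells, was at 2239 FPKM in the control and 1699, 1627 and 1817 FPKM in the subclones (log2 fold change -0.38, SE 0.18, adjusted p = 0.182). *Tubb4b*, used in cilia and elsewhere, was at 704 FPKM in the control and 451, 912 and 472 FPKM in #1, #2 and #3, so that #2 stood apart with 23.3% of the beta sum against 13.9% and 13.6%. *Tubb2b*, at 580 FPKM in the control and 553, 656 and 661 FPKM in the subclones, and *Tubb3*, the neuronal isotype, at 169 FPKM and 68.5, 161 and 120 FPKM, were not called. Without #2, *Tubb3* and *Tubb4b* were called lower. DESeq2's Wald test called no beta-tubulin gene.

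Of the gamma-tubulin group, 6 of 7 genes were tested, *Tubgcp6* rose and 5 were not called. *Tubgcp6*, a subunit of the gamma-tubulin ring that starts microtubules, had 6.12 CPM in the control and 48.2, 40.9 and 49.1 CPM in the subclones. Its log2 fold change was 2.91 (SE 0.34, adjusted p = 0.00754), and it was called in all 12 alternatives. It shares 1120 of its 20964 bases with *Selenoo*, on the other strand, which was also called higher (log2 fold change 2.52, adjusted p = 0.0281). *Tubg1*, gamma tubulin itself, was at 81.4 FPKM in the control and 74.3, 60.9 and 66.1 FPKM in the subclones (log2 fold change -0.28, SE 0.24, adjusted p = 0.443). The core ring proteins *Tubgcp2* and *Tubgcp3* had log2 fold changes of 0.36 (SE 0.27) and 0.25 (SE 0.27), both with the control below all 3 subclones and not called.

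Among the subclones, #1 was the lowest of the 3 in 43 of the 85 tested members and the highest in 17. Subclones #2 and #3 were the highest in 35 and 33. The median log2 difference of a member from the control was -0.10 in #1, 0.20 in #2 and 0.05 in #3, and the median coefficient of variation over the subclones was 19.9%. The summed fibroblast markers were lowest in #1 and highest in #2, in the same order as these medians, and their part in the medians was not tested.

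Gene length moved with the direction of the calls. The 10 members called higher had a median length of 5284.5 bases in the deposited annotation and the 7 called lower 1641 bases. Of 28 tested members of at least 4000 bases, 7 were called higher (25.0%), beside 11.4% of all genes of that length, and 2 were called lower (7.14%), beside 1.80%. Of 37 members from 2000 up to 4000 bases, 1 was called higher and 1 lower (2.70% each), beside 9.61% and 3.59%. Of 20 members shorter than 2000 bases, 2 were called higher and 4 lower, beside 6.85% and 7.60% of all genes of that length. Over all genes tested the median log2 fold change was -0.22 below 2000 bases and 0.39 from 4000 bases on, so the trend was not limited to the members. After a length correction *Kif3c*, *Kif7* and *Cenpp* were no longer called, while *Bub1*, *Aurkaip1*, *Cenpi*, *Cenpn*, *Kif18a* and *Kif23* were called lower. The part of transcript length in the main calls was otherwise not tested.

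**Figure D4:**
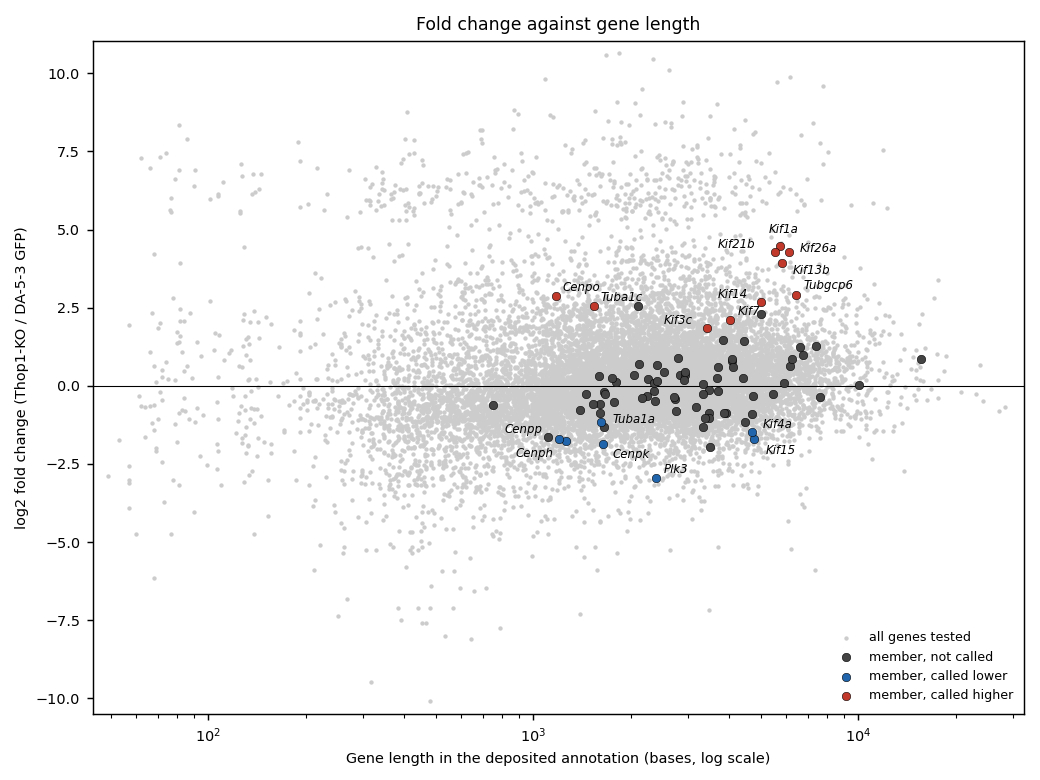
Log2 fold change (Thop1-KO over DA-5-3 GFP, y axis) against gene length in bases (x axis, log scale) for all 15028 genes tested (light grey) and the 85 tested members (dark grey, red where called higher and blue where called lower). Called-higher members have a median length of 5284.5 bases and called-lower members of 1641 bases, with *Cenpo* and *Tuba1c* the short exceptions among the higher calls.

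Members rarely lay near each other. In the deposited coordinates 8 pairs of tested members were within 1000000 bases, and in 3 of them both genes were called. *Kif21b* and *Kif14*, both higher, lie 328613 bases apart on chromosome 13, with 3 tested genes between them and none of these called. *Kif3c* and *Cenpo*, both higher, lie 834026 bases apart on chromosome 6, and of 7 tested genes between them 3 were called higher and 1 lower. The third pair is *Tuba1a* and *Tuba1c*, which went opposite ways. The pairs were looked for after the values were seen.

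Many mitotic genes are turned on in G2 and M through the promoter motifs CHR and CCAAT, so their letters were searched for around the starts of the members. RefSeq's GRCr8 table held 80 of the 94 by symbol. TTTGAA on either strand, the core of the CHR, was found in 21 of the 80 (26.2%) and in 18.1% of all 27457 promoters of the same 300 bases. It was found in 6 of 12 mitotic kinesins, 5 of 11 constitutive centromere genes and 2 of 19 transport or other kinesins. The gamma-tubulin group held it in 0 of 7 and the *Aurk* genes in 0 of 2. CCAAT on either strand was found in 39 of 80 (48.8%) and in 37.7% of all promoters. By role, CCAAT was in 7 of 12 mitotic kinesins, 3 of 11 constitutive centromere genes and 6 of 19 transport or other kinesins. Alpha and beta tubulins each held it in 6 of 8. A TTTGAA match and a CCAAT match can share a base, and base composition affects how often each appears. Of the members called higher 5 were matched and 2 held TTTGAA; of those called lower 7 were matched and 2 held it.

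The promoters of the 2 mitotic kinesins that fell and of 2 constitutive centromere genes that went opposite ways are shown for that contrast, over the same bases and with the same marks as for the alpha tubulins.
Kif15 (chr8:131479154-131479433, + strand): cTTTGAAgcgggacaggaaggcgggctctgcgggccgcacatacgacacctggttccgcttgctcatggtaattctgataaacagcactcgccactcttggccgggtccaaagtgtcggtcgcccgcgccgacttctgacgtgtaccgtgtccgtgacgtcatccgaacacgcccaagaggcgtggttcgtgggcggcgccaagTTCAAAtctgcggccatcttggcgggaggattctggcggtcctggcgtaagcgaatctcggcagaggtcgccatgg
Kif4a (chrX:69761633-69761912, + strand): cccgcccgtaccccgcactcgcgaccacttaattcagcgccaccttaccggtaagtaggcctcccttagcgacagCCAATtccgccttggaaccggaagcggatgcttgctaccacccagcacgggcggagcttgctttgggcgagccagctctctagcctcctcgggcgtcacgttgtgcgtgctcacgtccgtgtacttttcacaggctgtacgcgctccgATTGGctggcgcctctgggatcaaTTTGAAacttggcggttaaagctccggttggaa
Cenpk (chr2:37094017-37094296, + strand): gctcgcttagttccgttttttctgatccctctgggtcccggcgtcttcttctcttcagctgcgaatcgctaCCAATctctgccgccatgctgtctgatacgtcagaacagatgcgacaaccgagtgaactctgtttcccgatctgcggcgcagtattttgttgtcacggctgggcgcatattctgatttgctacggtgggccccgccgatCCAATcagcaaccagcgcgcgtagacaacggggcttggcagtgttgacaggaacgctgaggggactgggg
Cenpo (chr6:32937824-32938103, - strand): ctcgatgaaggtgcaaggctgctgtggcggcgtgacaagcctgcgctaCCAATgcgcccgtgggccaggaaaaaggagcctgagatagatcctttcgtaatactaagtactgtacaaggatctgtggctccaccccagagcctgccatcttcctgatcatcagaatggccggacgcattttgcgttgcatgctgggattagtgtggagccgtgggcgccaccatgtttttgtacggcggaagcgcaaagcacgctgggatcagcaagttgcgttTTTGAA
*Kif15* held TTTGAA or its complement at 2 places and *Kif4a* at 1, directly at the start. *Cenpo*, which rose, held it too, 24 bases after the start, and *Cenpk*, which fell, did not. These promoters were picked after the calls were seen, and the part of these letters in the directions was not tested.

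The rest of the division machinery was read from a list of 90 further genes. It held 89 matched symbols, and 88 genes were tested, of which 11 rose, 8 fell and 69 were not called (12.5% and 9.09%, beside the 8.62% and 5.17% of all genes). The median log2 fold change was -0.05.

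Outer kinetochore genes resembled the constitutive ones in their median, which was -0.64 over 17 tested genes, 13 of them negative. Of the 17, 3 were called lower (17.6%) and 2 higher (11.8%), beside 5.17% and 8.62% of all genes. *Ndc80* and *Nuf2*, the paired subunits that grip the microtubule, fell by 1.28 (SE 0.33, adjusted p = 0.0471) and by 1.22 (SE 0.27, adjusted p = 0.0343) on the log2 scale. *Ndc80* was counted 554 times in the control and 202, 319 and 287 times in the subclones. *Ska3*, of the complex that follows shortening fibres, fell by 1.40 (SE 0.35, adjusted p = 0.0464). *Nsl1* and *Zwilch* rose by 1.53 (SE 0.29, adjusted p = 0.024) and 2.0 (SE 0.37, adjusted p = 0.0217). In the checkpoint and APC/C list, *Ttk*, the kinase that starts checkpoint signalling, had a log2 fold change of -1.90 (SE 0.45, adjusted p = 0.0384), *Pttg1* (securin) of -1.12 (SE 0.23, adjusted p = 0.027) and *Ube2c* of -0.98 (SE 0.22, adjusted p = 0.0362). The other 7 of the 10 genes in that list were not called.

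The midzone and cytokinesis list had 3 of 5 genes called, all higher. *Racgap1*, the partner of KIF23 in centralspindlin, had 6.12 CPM in the control and 75.5, 81.6 and 96.8 CPM in the subclones (log2 fold change 3.79, SE 0.35, adjusted p = 0.00678). *Cit*, the citron kinase that KIF14 binds, had 13.6 CPM in the control and 99.6, 86.4 and 108 CPM in the subclones (log2 fold change 2.85, SE 0.31, adjusted p = 0.00705). *Anln*, which anchors the contractile ring, had a log2 fold change of 1.92 (SE 0.41, adjusted p = 0.0295). *Racgap1* and *Kif23* thus had opposite signs, though *Kif23* did not pass.

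Of the 4 genes that load CENP-A, *Hjurp*, its chaperone, rose from 19.9 CPM to 99.7, 129 and 146 CPM (log2 fold change 2.65, SE 0.35, adjusted p = 0.00926) and *Oip5* rose by 1.54 on the log2 scale (SE 0.37, adjusted p = 0.0417). In the list of the passenger complex and cohesion, *Cdca5* (sororin) and *Haspin* rose, with log2 fold changes of 2.32 (SE 0.38, adjusted p = 0.0156) and 1.77 (SE 0.42, adjusted p = 0.0387), and 5 of 7 were not called. In the spindle assembly list 2 of 30 rose, *Clasp1* (log2 fold change 2.48, SE 0.33, adjusted p = 0.00948) and *Mzt1* (2.57, SE 0.60, adjusted p = 0.0381), and *Ckap5* fell (-1.41, SE 0.34, adjusted p = 0.0399). Of 15 tested genes of tubulin folding, modification and binding, *Map1b* fell (-1.44, SE 0.37, adjusted p = 0.0468).

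General markers of proliferation did not move one way. Of 11 tested G2/M genes, 2 fell (18.2%, beside 5.17% of all genes), 9 were not called, and the median was -0.52. The 2 were *Top2a* and *Cks2*, with log2 fold changes of -1.05 (SE 0.26, adjusted p = 0.042) and -0.87 (SE 0.23, adjusted p = 0.0499). Of 16 S phase genes, *Rrm2* and *Uhrf1* rose, by 2.64 (SE 0.35, adjusted p = 0.00926) and 1.39 (SE 0.22, adjusted p = 0.0148), and *Pcna* had a log2 fold change of -1.41 (SE 0.26, adjusted p = 0.021), with a median of -0.03. The part of the share of cells in G2 and M in the values of the mitotic members was not tested. Without #3 the calls in the 90 genes fell to 5 higher and 0 lower in edgeR (12 and 11 at an unadjusted p under 0.05). In the proliferation genes they fell to 1. Without #2 they were 21 higher and 24 lower in the 90 genes and 13 in the proliferation genes. Over all genes, 2.40% were called higher and 0.698% lower without #3, and 21.1% and 16.8% without #2.

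**Figure D5:**
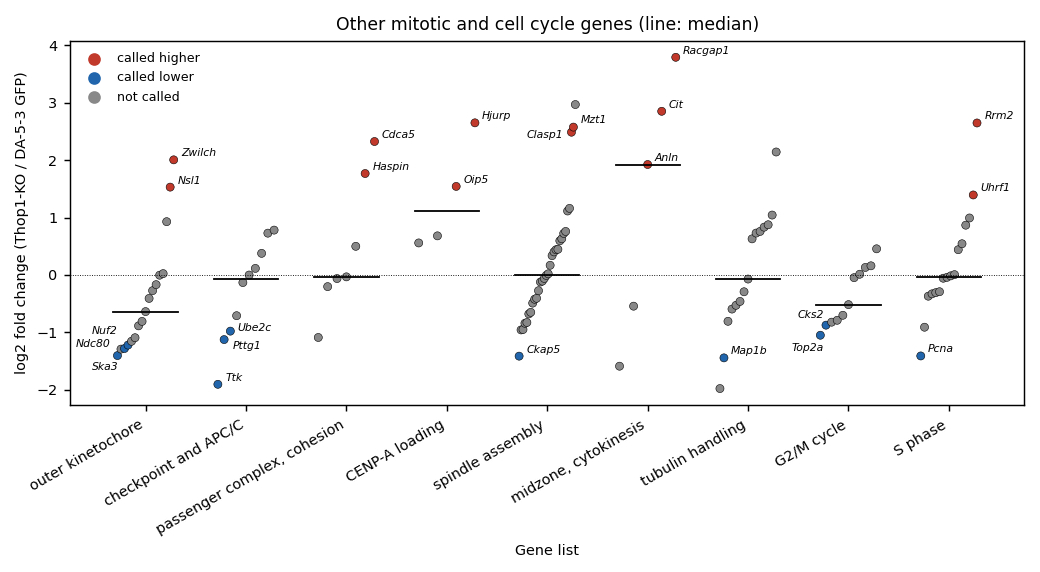
Each point is the log2 fold change (Thop1-KO over DA-5-3 GFP, y axis) of 1 tested gene in the lists of other mitotic and cell cycle genes (x axis), red where called higher, blue where called lower and grey where neither, with a line at the median. The outer kinetochore median lies at -0.64 and the G2/M median at -0.52, while 3 of 5 midzone and cytokinesis genes are called higher, led by *Racgap1* at 3.79.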

How the data were processed

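RNA-seq libraries of 1 DA-5-3 GFP culture and 3 Thop1-KO subclones were analysed (4 libraries). For each gene the authors deposited a raw count (HISAT2 2.0.5 and featureCounts 1.5.0-p3, per the submitters' processing notes) and an FPKM, which is that count over gene length and 1 scaling factor per library. Libraries were made from poly(A) RNA, and adaptors were removed with the FASTX toolkit. Genome build and strand setting are not given in the sources used here.

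Counts were tested with edgeR 4.0.16 in R 4.3.3 (filterByExpr with a minimum count of 10, TMM, quasi-likelihood test, Benjamini-Hochberg adjustment over all 15028 genes, called under 0.05). A standard error is the log2 fold change divided by the square root of F. Alternatives used other scalings and filters, DESeq2 1.42.0, limma 3.58.1 on log2 FPKM (pseudocounts of 1 and 0.1), a loess correction for gene length (span 0.3), and each subclone left out. Counting error limits genes with few counts.

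The set of members was proposed, and the gene lists were chosen, with earlier results of these data known, although the symbol rule itself uses no measured value. Named are *Thop1*, all called members, the 5 largest folds not called, the 3 highest genes of each family, a fixed set of core mitotic genes, and called genes of the other lists. The subclones are separate clones of 1 line, so p-values measure their spread only.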

Additional observations from a re-analysis of the deposited data

How the results depend on the processing

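Subclone #2 and subclone #3 changed the counts most. Over the fits that each left out 1 subclone, the members called higher ranged from 6 to 17, the members called lower from 1 to 21 and the members' median log2 fold change from -0.13 to 0.15. The other spindle genes called higher ranged from 5 to 21 and those called lower from 0 to 24 (at 0, edgeR had 11 lower at an unadjusted p under 0.05), and the proliferation genes called from 1 to 13. With all subclones, these were 10, 7, 0.05, 11, 8 and 5. The lowest counts were without #3 and the highest without #2. With the length correction, the members called lower were 12, the members' median was -0.27 and the other spindle genes called lower were 14. With limma, the members called lower were 4 at a pseudocount of 1 and 2 at 0.1, the other spindle genes called lower were 3 at both, and the proliferation genes called were 3 at 0.1. Over all genes, limma called 5.85% lower at a pseudocount of 1 and 3.96% at 0.1. With library size scaling, the other spindle genes called lower were 4. Of the values of single named genes under the alternatives, 593 kept their direction and side of the threshold, 32 lost the call, 21 gained one and 12 turned direction without being called. With the length correction, *Aurkb* turned to -0.11, *Kif22* to -0.18, *Kif2c* to -0.11, *Tubb2b* to -0.023, *Tubgcp3* to -0.082 and *Cenpf* to -0.46. With upper quartile scaling, *Kif22* turned to -0.023 and *Cenpf* to -0.045. *Cenpf* also turned to -0.023 and -0.096 in limma at pseudocounts of 1 and 0.1, and ranged from -0.20 to 0.41 over the fits that each left out 1 subclone. The cause of these shifts was not tested. No paired analysis was possible because the control has 1 library. Depth left untested the 9 members with at most 7 counts in any library.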
